A study of Mus musculus with 7 samples.

Results

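The genes described here are 8 members of the machinery through which T cells bind selectins and hyaluronan. They are Selplg, Fut7, Fut4, St3gal4, St3gal6, Gcnt1, B4galt1 and Cd44. They were picked by name from the 24084 gene rows of a count table of regulatory T cells (Tregs), with earlier results of these data known. All 8 had a row. Tregs are the CD4 T cells defined by the transcription factor Foxp3. They were sorted from skin in telogen, when hair follicles rest, and from skin draining lymph nodes (SDLN) of Foxp3-DTR mice, 6 weeks old. All groups carried this Foxp3 allele, written Foxp3-DTR/GFP for the series, in which Foxp3-expressing cells carry the receptor for diphtheria toxin along with a fluorescent reporter; no toxin treatment is given in the labels. There were 3 SDLN and 4 skin libraries, and neither the sort gates nor the animals behind each library are stated. Whether libraries are separate animals is therefore unknown, and p-values measure the spread between libraries, which may be technical.

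Selectins are lectins on endothelium, platelets and leukocytes that catch cells from flowing blood. They bind a sialylated and fucosylated sugar, sialyl Lewis x, that is carried on mucin-like proteins, above all on PSGL-1, the product of Selplg. T cells build that sugar on PSGL-1 with glycosyltransferases of the Golgi, and cells entering inflamed or barrier skin use it to roll on E-selectin and P-selectin. Cd44 is the main hyaluronan receptor, a marker of antigen-experienced T cells, and itself a carrier of E-selectin ligands.

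Of the 8 genes, Gcnt1 and Cd44 rose in skin Tregs, by 11.5-fold and 5.41-fold. None of the enzymes that add fucose or sialic acid to the selectin ligand passed the test, and neither did B4galt1 or Selplg, the scaffold itself. With edgeR's quasi-likelihood test at an adjusted p under 0.05, 2 of the 7 members tested were higher and 0 were lower. Over all 11376 genes tested, 7.24% were called, 3.28% higher and 3.96% lower. Members called lower numbered 0 at an unadjusted p under 0.05 as well, where 18.6% of all genes passed in either direction, 0 with DESeq2, 0 with limma-voom and 1, St3gal6, with sample weights in limma-voom. Fut4 had too few counts to be tested. Cd44 and Gcnt1 were also the 2 members called higher with DESeq2, where 12.6% of all genes were called, with limma-voom (8.79%) and with its sample weights (15.3%). The same 2 were called with RLE (7.26%), upper-quartile (7.22%) or no scaling (7.44%), without the low-count filter (1.6%), with a mean of at least 5 CPM (3.89%), without robust estimation (7.39%), at an adjusted p under 0.01 (0.774%) and against a fold of 1.5 (5.79%). They were called, too, without SDLN 1, 2 or 3 (0.405%, 0.364% and 0.641% of all genes) and without skin 1, 2, 3 or 4 (10.8%, 8.58%, 11.3% and 8.05%). Neither was called in a fit with a replicate block on 6 libraries (adjusted p = 0.0572 for Cd44 and 0.0598 for Gcnt1). The median log2 fold change of the 7 was 0.29, against 0.05 over all genes tested.

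The stretches upstream of the transcription starts of Cd44, Gcnt1 and Fut7 are printed because the first 2 rose in skin and the third was the only other member whose skin libraries all stood above the SDLN libraries. Each run is the 250 bases before a RefSeq start, on the gene's strand, from GRCm38.p6. Cd44 lies on the minus strand at chr2:102901666-102901915, the outermost of the 3 starts of Gcnt1 on the minus strand at chr19:17372845-17373094, and the outer of the 2 starts of Fut7 on the plus strand at chr2:25422992-25423241. Capitals mark a match to the Runx motif.
Cd44: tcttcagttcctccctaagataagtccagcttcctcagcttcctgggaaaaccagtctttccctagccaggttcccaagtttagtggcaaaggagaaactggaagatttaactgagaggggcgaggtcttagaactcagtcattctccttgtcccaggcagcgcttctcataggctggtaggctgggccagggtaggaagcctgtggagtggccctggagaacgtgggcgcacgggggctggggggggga
Gcnt1: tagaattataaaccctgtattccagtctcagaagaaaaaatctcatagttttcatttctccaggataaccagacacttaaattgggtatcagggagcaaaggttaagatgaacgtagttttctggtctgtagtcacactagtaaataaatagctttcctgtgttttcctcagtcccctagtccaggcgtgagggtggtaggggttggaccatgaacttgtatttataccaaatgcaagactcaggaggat
Fut7: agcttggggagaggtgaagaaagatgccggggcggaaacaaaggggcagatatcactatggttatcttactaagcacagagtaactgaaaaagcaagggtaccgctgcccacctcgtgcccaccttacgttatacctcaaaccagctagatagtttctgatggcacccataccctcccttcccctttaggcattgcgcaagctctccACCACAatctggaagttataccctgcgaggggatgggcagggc

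Motifs of 6 factors active in T cells were searched on both strands of every such 250-base stretch: AP-1 (TGANTCA), T-box (GGTGTGA), NF-kappaB (GGGA and CC with any 4 bases between), STAT (TTCNNNGAA), Runx (TGTGGT) and ETS (CCGGAAG). No match lay in the stretch of Cd44 or in any of the 3 of Gcnt1. The outer Fut7 start held 1 Runx match, from 43 to 38 bases upstream of the start, and the inner one held none. The other matches were a STAT and a Runx match at B4galt1, a Runx match at the outer start of St3gal6 and an NF-kappaB match at its inner start. Over 32536 stretches of that length, 6.73% held AP-1, 3.33% T-box, 17.7% NF-kappaB, 7.04% STAT, 14.0% Runx and 6.95% ETS. These are matches of letters alone. Starts of Fut4 and St3gal4 held no match, and Selplg had no entry.

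Library depth was 11009609 to 14785751 gene counts, and 3 counts, the number that a count of 0 allows, stood for 0.204 to 0.276 CPM, which are counts scaled to a common library size. SDLN libraries had 13408 to 13845 genes with a count and skin libraries 9690 to 12639. The skin libraries were less alike, with correlations of log2 CPM across genes of 0.624 to 0.699, against 0.964 to 0.981 among SDLN libraries. Between SDLN and skin libraries the correlations were 0.617 to 0.700. By this measure skin libraries were no more alike than libraries of different tissues. Genes are not independent replicates. Skin 1 carries a tissue tag that names the lymph node, against its title and source. Skin 3 held transcripts of keratinocytes, at a sum of 608 CPM over 5 markers against at most 0.566 CPM in the other skin libraries, and of fibroblasts, at 544 CPM over 4 markers against at most 7.92 CPM. Markers of macrophages and dendritic cells summed to 14.98 to 21.4 CPM in SDLN and 148 to 669 CPM in skin over 12 markers, with the highest value in skin 4; of these, Mertk and Cd207 were at 0 in all libraries, and Lyz2 was the most abundant. All 7 T cell and Treg markers had counts in every library, at levels that differed in both directions. Foxp3 was at 69.0 to 102 CPM in SDLN and 107 to 248 CPM in skin, whereas every skin library lay below every SDLN library for Cd3e (560 to 1248 against 1662 to 2203 CPM), Cd3d (376 to 771 against 820 to 1445 CPM) and Cd4 (297 to 618 against 682 to 827 CPM). None of these 4 passed the test (adjusted p from 0.118 to 0.246), and their part in the results was not tested. Ctla4 and Ikzf2 rose in skin.

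Cd44 rose in every skin library. It lies on chromosome 2 (mm10, 102811141 to 102901665) and is protein-coding. Its level was 313, 314 and 304 CPM in SDLN 1 to 3 and 1942, 1450, 1698 and 1629 CPM in skin 1 to 4. The lowest skin library was far above the highest SDLN library, and the libraries of each tissue lay close together. The SDLN mean was 310.2 ± 5.55 CPM (SD, n = 3) and the skin mean 1680 ± 204 CPM (SD, n = 4), a 5.41-fold difference (log2 fold change 2.44, SE 0.21, edgeR adjusted p = 0.00173). The coefficient of variation of Cd44 was 0.0179 in SDLN and 0.121 in skin, where the medians over all tested genes were 0.187 and 0.750; 1.03% and 0.919% of tested genes varied less. Without skin 1, the library with the discordant tag, the log2 fold change was 2.36 (adjusted p = 0.00378). Keratinocytes and macrophages also make Cd44. Without skin 3 the log2 fold change was 2.44 (adjusted p = 0.00614), and without skin 4 it was 2.44 as well (adjusted p = 0.0107). The sum of the 12 macrophage and dendritic cell markers was above the SDLN range in every skin library. Singly, Lyz2 and Xcr1 were above it in every skin library, whereas Csf1r and Cd68 had no count in skin 2. The part of these cells in the result was not tested. In these bulk libraries a shift in the share of cells that make a transcript and a shift in its amount per cell cannot be told apart.

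Gcnt1 rose more than any other member. It encodes the core 2 N-acetylglucosaminyltransferase, which opens the branch of O-glycans on which the selectin-binding sugar of PSGL-1 is built. Gcnt1 lies on chromosome 19 (17326141 to 17372844, protein-coding). Its level was 23.9, 33.0 and 32.3 CPM in SDLN 1 to 3 and 495, 226, 342 and 305 CPM in skin 1 to 4. Every skin library stood above every SDLN library, with skin 1 the highest and skin 2 the lowest of the skin libraries. The means were 29.7 ± 5.03 CPM (SD, n = 3) and 342 ± 113 CPM (SD, n = 4), an 11.5-fold difference (log2 fold change 3.52, SE 0.37, edgeR adjusted p = 0.00388). Among genes with a positive fold change, Cd44 had the 15th and Gcnt1 the 28th smallest p. Without skin 1 the log2 fold change of Gcnt1 was 3.29 (adjusted p = 0.00506), without skin 3 it was 3.53 (adjusted p = 0.0135) and without skin 4 it was 3.56 (adjusted p = 0.0170).

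**Figure D1:**
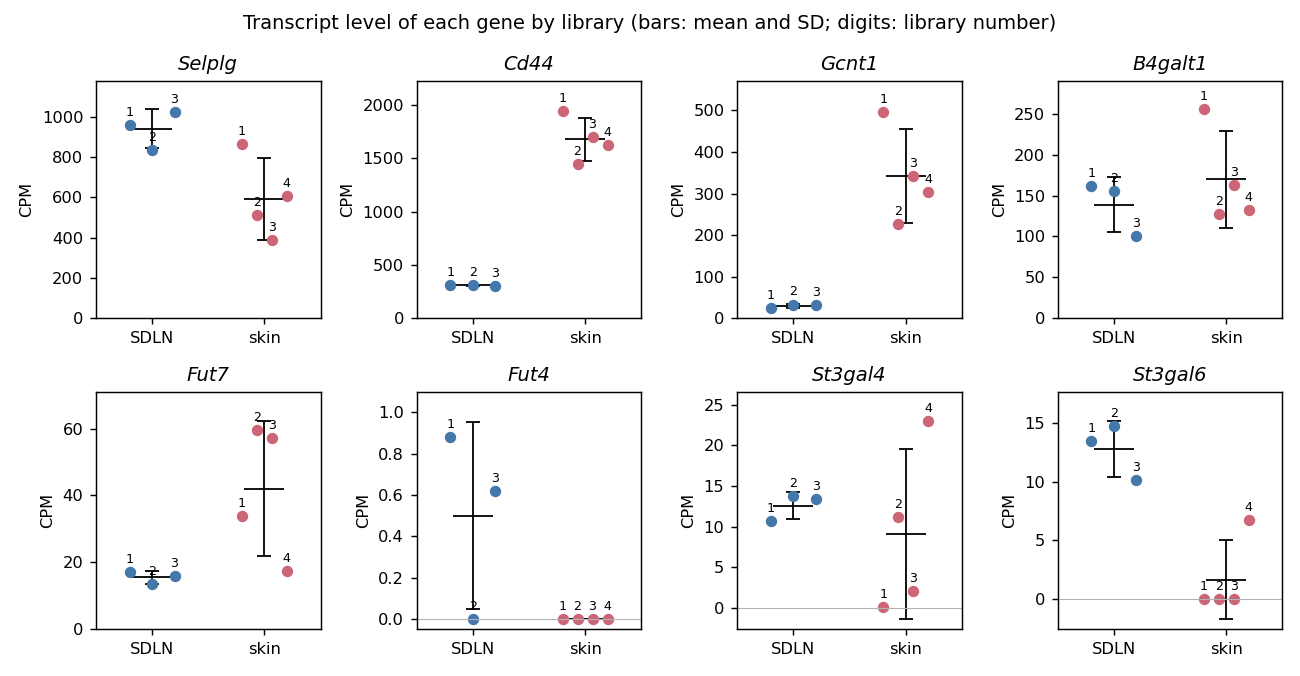
Level of each of the 8 genes in CPM (vertical axis, linear) in 3 SDLN libraries (blue) and 4 skin libraries (red); points are libraries with their number, and bars give the mean and SD. Cd44 and Gcnt1 have all skin libraries far above SDLN, St3gal6 has a count in 1 skin library only, and Fut4 is at 0 in all 4.

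Selplg, the scaffold PSGL-1, was abundant in both tissues (chromosome 5, 113818536 to 113832644, protein-coding). Its level was 962, 835 and 1027 CPM in SDLN 1 to 3 and 864, 515, 387 and 605 CPM in skin 1 to 4. The groups overlapped through skin 1, which lay above SDLN 2, while the other 3 skin libraries lay below all SDLN libraries. The means were 942 ± 97.5 CPM (SD, n = 3) and 593 ± 202 CPM (SD, n = 4), and with a log2 fold change of -0.67 the difference did not pass (SE 0.29, edgeR adjusted p = 0.278). It did not pass without skin 1 either, at a log2 fold change of -0.90 (adjusted p = 0.0540).

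Fut7 and Fut4 encode the 2 alpha-1,3-fucosyltransferases that complete sialyl Lewis x in leukocytes, with Fut7 the main one in T cells. Fut7 (chromosome 2, 25423267 to 25426374, protein-coding) was at 17.1, 13.4 and 15.9 CPM in SDLN 1 to 3 and 33.7, 59.7, 57.2 and 17.4 CPM in skin 1 to 4. The tissues did not overlap, but skin 4 lay just above SDLN 1. The means were 15.5 ± 1.89 CPM (SD, n = 3) and 42.0 ± 20.2 CPM (SD, n = 4), and at a log2 fold change of 1.44 Fut7 did not pass (SE 0.67, edgeR adjusted p = 0.306). Of the 7 tested members, 4 had tissues that did not overlap, against 26.6% of all tested genes. Fut4 (chromosome 9, 14748320 to 14752393, protein-coding) had 13, 0 and 8 counts in SDLN 1 to 3 and none in any skin library. Its highest level was 0.882 CPM, in SDLN 1, so a change in Fut4 was not detectable at this depth.

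St3gal4 and St3gal6 encode alpha-2,3-sialyltransferases that cap the lactosamine chain before fucose is added. St3gal4 (chromosome 9, 35046576 to 35119268, protein-coding) was at 10.7, 13.7 and 13.4 CPM in SDLN and 0.0920, 11.2, 2.03 and 23.0 CPM in skin 1 to 4. Skin 1 had a single count, whereas skin 4 lay above all SDLN libraries. The means were 12.6 ± 1.68 CPM (SD, n = 3) and 9.06 ± 10.5 CPM (SD, n = 4), with a log2 fold change of -0.47 (SE 1.48, edgeR adjusted p = 0.925), so the spread in skin was larger than the difference. St3gal6 (chromosome 16, 58468125 to 58524243, protein-coding) was at 13.5, 14.8 and 10.1 CPM in the SDLN libraries, had no count in skin 1, 2 and 3, and was at 6.70 CPM (94 counts) in skin 4. All skin libraries lay below SDLN, and for the 3 at 0 the level that a count of 0 allows was 0.243 to 0.276 CPM. At a log2 fold change of -2.92 St3gal6 did not pass (SE 2.31, edgeR adjusted p = 0.609) and passed without skin 4 (adjusted p = 0.0415), in a fit where its skin counts were all 0 and the size of the change is not defined. A gene at 0 in at least 1 skin library was common, at 29.5% of all tested genes, and fewer genes had a count in skin libraries, as given above; the part of this in these values was not tested. Exons of St3gal6 share 1603 bases with Dcbld2 and those of St3gal4 share 412 bases with 4930581F22Rik on the opposite strand. Reads there cannot be assigned to either gene unless strand was used. Dcbld2 itself was at 0.154 to 2.44 CPM in SDLN and 0 to 2.56 CPM in skin. 4930581F22Rik was at 8.70 to 12.3 CPM in SDLN and 2.76 to 28.1 CPM in skin, near the levels of St3gal4.

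B4galt1 encodes the galactosyltransferase that makes lactosamine, the chain that carries sialyl Lewis x (chromosome 4, 40804602 to 40854005, protein-coding). It was at 161, 156 and 99.9 CPM in SDLN 1 to 3 and 256, 128, 162 and 133 CPM in skin 1 to 4. The tissues overlapped, with skin 1 apart from the other skin libraries. The means were 139 ± 34.0 CPM (SD, n = 3) and 170 ± 59.4 CPM (SD, n = 4), a log2 fold change of 0.29 (SE 0.35, edgeR adjusted p = 0.772).

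**Figure D2:**
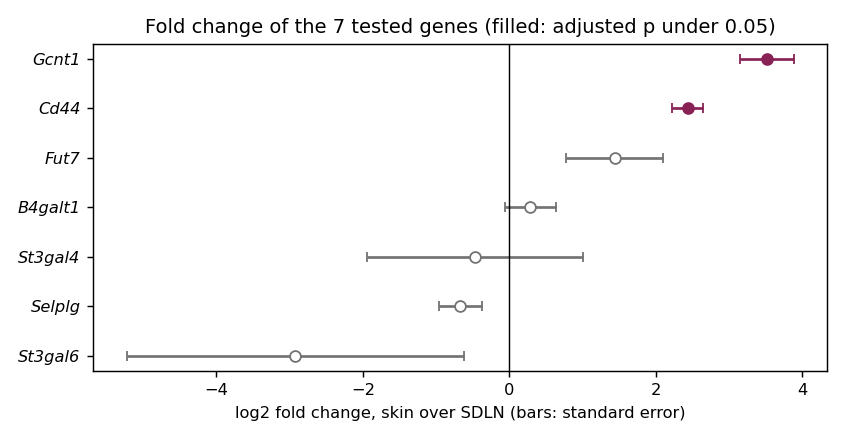
Log2 fold change of skin over SDLN (horizontal axis) for the 7 tested genes, with bars for the standard error from the quasi-likelihood fit; filled points passed an adjusted p of 0.05. Gcnt1 at 3.52 and Cd44 at 2.44 passed, and St3gal4 and St3gal6 have the widest bars.

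Levels of different genes were compared as CPM per kilobase of exon, a scale that takes gene length into account. In SDLN the order by mean was Selplg (220.4), Cd44 (45.8), B4galt1 (32.8), Fut7 (6.57), Gcnt1 (5.16), St3gal4 (4.30), St3gal6 (2.07) and Fut4 (0.123). Over the SDLN libraries, the ranges of Fut7 and Gcnt1 overlapped, as did those of Gcnt1 and St3gal4; all other neighbours were separate. In skin the order was Cd44 (248), Selplg (139), Gcnt1 (59.4), B4galt1 (40.1), Fut7 (17.8), St3gal4 (3.10), St3gal6 (0.272) and Fut4 (0). In skin the ranges of Gcnt1 and B4galt1 overlapped, as did those of Fut7 and St3gal4, of St3gal4 and St3gal6 and of St3gal6 and Fut4.

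Cd44 and Selplg, and Gcnt1 and B4galt1, stood in opposite order in the 2 tissues. The ratio of Cd44 to Selplg per kilobase was 0.205, 0.237 and 0.187 for the SDLN libraries in order, against 1.42, 1.77, 2.77 and 1.70 for the skin libraries. So Selplg was the more abundant transcript in all SDLN libraries and Cd44 in all skin libraries. The ratio of Gcnt1 to B4galt1 per kilobase, the branching enzyme over the chain-extending enzyme, was 0.109 to 0.237 in SDLN and 1.30 to 1.69 in skin. Gcnt1 exceeded B4galt1 within each skin library although their ranges over libraries overlapped. These ratios restate the values of the single genes and were not tested.

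**Figure D3:**
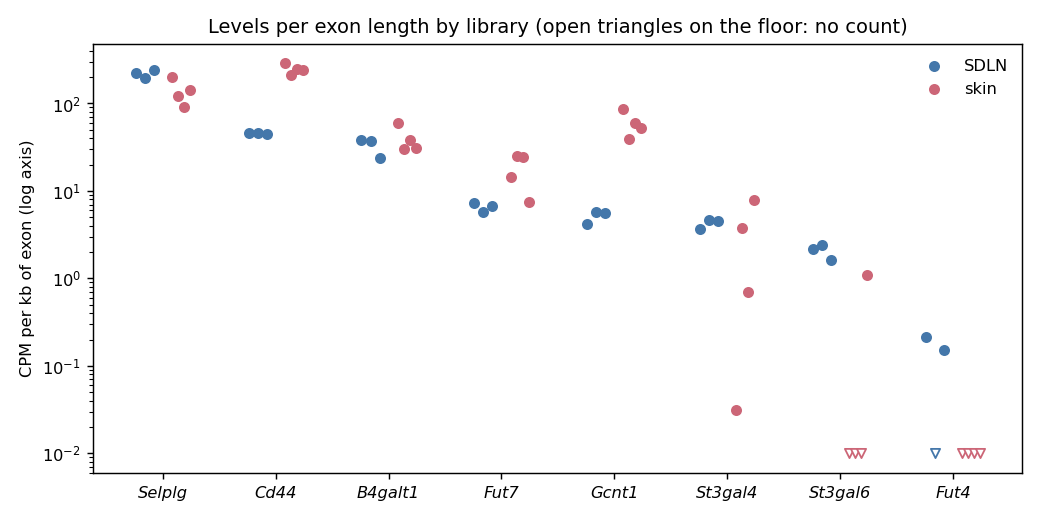
CPM per kilobase of exon (vertical axis, logarithmic) of the 8 genes in each SDLN (blue) and skin (red) library; open triangles stand for libraries with no count and are drawn at the bottom of the plot. Cd44 and Gcnt1 move up past Selplg and B4galt1 in skin, and the SDLN points of each gene but Fut4 lie close together.

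For each tested member the 2 other genes with the most similar pattern were found among tested genes averaging 20 CPM or more. Symbols of the Gm, Rik, LOC and Mir kinds, date-like symbols and those starting with a digit were left out. Likeness was measured by the root mean square difference of centred log2 CPM over the 7 libraries. Nearest to Cd44 were Chd7 (0.19) and Rnf125 (0.22), where Chd7 encodes a chromatin remodeller at a mean of 38.0 CPM in SDLN and 175 CPM in skin. Nearest to Gcnt1 were Slc25a24 (0.22) and Il1rl1 (0.29), the interleukin-33 receptor, at 25.4 CPM in SDLN and 412 CPM in skin. Selplg was nearest to Laptm5 (0.13), a lysosomal protein of leukocytes, and Skap1 (0.15), a T cell adaptor protein. Fut7 was nearest to Usp48 (0.20) and Anapc2 (0.20), and B4galt1 to Ncoa2 (0.09) and Mapk1ip1l (0.13). The genes nearest to St3gal4, Sap18 (0.27) and Ppp1r3f (0.41), shared its low values in skin 1 and skin 3. The nearest to St3gal6, Prcp (0.64) and Gemin4 (0.86), were likewise highest among skin libraries in skin 4, at 44.7 and 20.5 CPM. They had at most 0.529 CPM in the other skin libraries. Genes chosen for likeness over the same 7 libraries share their depth and scaling, and the values describe these libraries.

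The other genes of selectin-ligand synthesis, in 7 lists of O-glycan, lactosamine, sialic acid, fucose, sulfate and nucleotide sugar enzymes and of other ligand scaffolds, mostly did not pass the test. Of 68 such genes in the table, 48 were tested; 1 was higher, 1 was lower and 46 did not pass, so 4.17% were called, against 7.24% of all tested genes. Their median log2 fold change was 0.05, the same as over all tested genes at this precision, and tissues did not overlap for 31.2% of them, against 26.6%. With DESeq2, 4 were higher and 3 lower, where 12.6% of all tested genes were called. The gene that fell was Slc35a1, the Golgi transporter that delivers CMP-sialic acid to all sialyltransferases. Slc35a1 was at 88.9, 95.0 and 105 CPM in SDLN 1 to 3 and 16.3, 12.1, 14.5 and 15.4 CPM in skin 1 to 4. Both tissues were tight and far apart, a 6.61-fold lower level in skin (log2 fold change -2.72, SE 0.41, edgeR adjusted p = 0.0130). Slc35a1 did not pass without SDLN 1, 2 or 3 (edgeR adjusted p = 0.134, 0.133 and 0.135), at log2 fold changes of -2.79, -2.75 and -2.67. In those fits 0.405%, 0.364% and 0.641% of all tested genes were called.

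The gene that rose was Glg1, which encodes ESL-1, a ligand of E-selectin in myeloid cells that otherwise resides in the Golgi. Glg1 was at 54.7, 71.6 and 59.4 CPM in SDLN 1 to 3 and 198, 259, 98.3 and 209 CPM in skin 1 to 4. Skin 3 was the lowest skin library and still above SDLN. The log2 fold change was 1.63 (SE 0.38, edgeR adjusted p = 0.0427), close to the threshold. Glg1 passed without skin 3 (edgeR adjusted p = 0.0257) and did not pass without any other single library. The adjusted p ran from 0.0537 without skin 1 to 0.223 without SDLN 1, a fit in which 0.405% of all tested genes were called. Another scaffold, the sialomucin Spn (CD43), was at 309 to 457 CPM in SDLN and 175 to 428 CPM in skin and did not pass (log2 fold change -0.43, adjusted p = 0.609).

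Enzymes that act before and beside Gcnt1 were looked up for their role after values had been seen. C1galt1, which makes the core 1 acceptor that Gcnt1 branches, was at 6.95 to 9.25 CPM in SDLN and 0 to 37.8 CPM in skin, with the highest value in skin 3. Its chaperone C1galt1c1 averaged 43.2 ± 9.93 CPM (SD, n = 3) over SDLN libraries, against 42.1 ± 8.69 CPM (SD, n = 4) over those of skin (log2 fold change -0.04, SE 0.46, edgeR adjusted p = 0.986). St3gal1, which caps core 1 and competes with Gcnt1 for it, was at 68.2, 67.9 and 68.5 CPM in SDLN and 17.8, 101, 23.3 and 109 CPM in skin 1 to 4. Skin libraries thus lay on both sides of SDLN for C1galt1 and St3gal1, and neither passed (adjusted p = 0.927 and 0.965). Slc35c1, the GDP-fucose transporter, was at 149, 117 and 116 CPM in SDLN 1 to 3 and 9.30, 91.8, 6.52 and 33.8 CPM in skin 1 to 4, all below SDLN, and did not pass (log2 fold change -1.85, SE 0.87, adjusted p = 0.316).

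By list, 12 O-glycan core and branch genes were tested and 0 passed with edgeR, with 3 higher and 1 lower at an unadjusted p under 0.05 and 1 higher and 1 lower with DESeq2. Over all tested genes 18.6% had an unadjusted p under 0.05 and 12.6% were called by DESeq2, and with so few genes a list these counts are given as a description. The most abundant in CPM, Galnt6, which starts O-glycans, was at 167 to 282 CPM in SDLN and 283 to 862 CPM in skin (log2 fold change 1.11, adjusted p = 0.191). Of 7 lactosamine chain genes 0 passed, with 1 higher and 1 lower at an unadjusted p under 0.05 and with DESeq2; B3gnt2, which extends the chain, had a log2 fold change of 0.63 (adjusted p = 0.406). Of 4 other sialyltransferases 0 passed, with 0 higher and 1 lower at an unadjusted p under 0.05 and 0 with DESeq2; St6gal1, which adds alpha-2,6-linked sialic acid, was at 352 ± 83.5 CPM (SD, n = 3) and 286 ± 129 CPM (SD, n = 4). Of 5 other fucosyltransferases 0 passed, with 0 at an unadjusted p under 0.05 and with DESeq2; Pofut1, which fucosylates Notch, had a log2 fold change of 0.33 (adjusted p = 0.901). Of 3 sulfotransferases 0 passed, with 0 at an unadjusted p under 0.05 and with DESeq2. Tpst2, which sulfates tyrosines such as those of PSGL-1 that P-selectin binds, was at 21.4, 16.02 and 20.003 CPM in SDLN and 6.996, 132, 65.3 and 89.6 CPM in skin 1 to 4 (log2 fold change 1.94, SE 0.87, adjusted p = 0.291). Skin 1 lay below SDLN and the other 3 skin libraries above; without skin 1, Tpst2 passed (log2 fold change 2.32, adjusted p = 0.0287). Of the 68 genes, 5 had no count in any library.

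**Figure D4:**
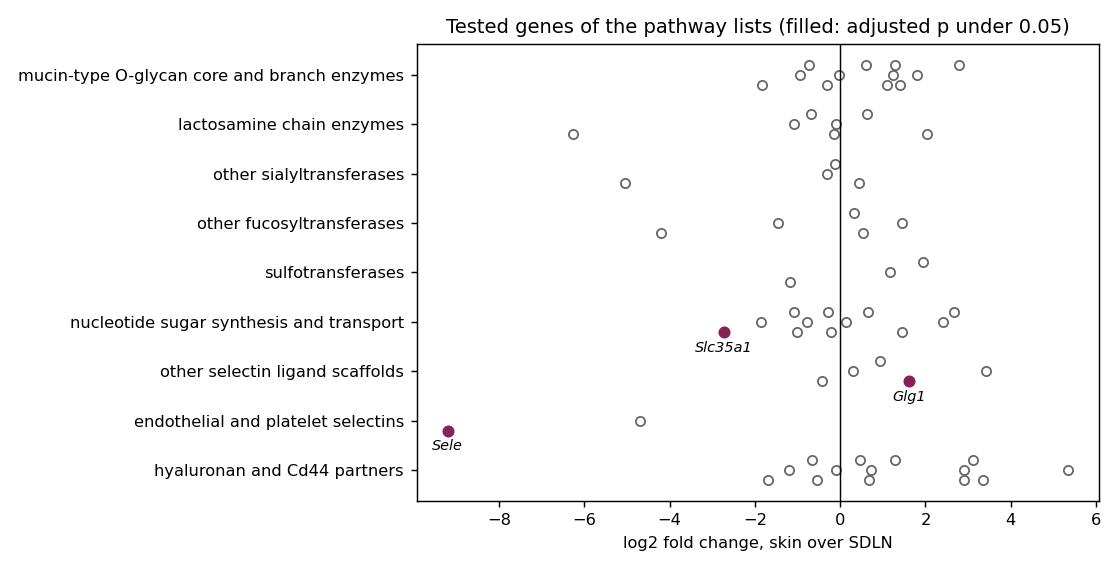
Log2 fold change of skin over SDLN (horizontal axis) for each tested gene of the 9 lists (rows); filled points with names passed an adjusted p of 0.05. Slc35a1, Glg1 and Sele are the 3 that passed; the position of Sele depends on the prior count, since it had no count in skin.

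Transcripts of the endothelial and platelet selectins themselves were found at low level in SDLN libraries. Sele, E-selectin, was at 4.27, 5.80 and 7.03 CPM in SDLN 1 to 3 and had no count in any skin library, which puts it at least 22.9-fold lower in skin with 3 counts per skin library as the floor (edgeR adjusted p = 0.0386). Selp, P-selectin, was at 10.9, 18.5 and 22.2 CPM in SDLN 1 to 3 and at 2.64 CPM in skin 3, with no count in the other skin libraries, and did not pass with edgeR (adjusted p = 0.332). Selp passed without skin 3 (adjusted p = 0.0279), with limma-voom (adjusted p = 0.0184) and with its sample weights (adjusted p = 0.0159). In the fit without skin 3 its skin counts were all 0, and the size of the change is not defined. Of the 5 endothelial markers, Cdh5, Kdr and Plvap had no count in any SDLN library and Emcn had 1 count, in SDLN 2. Of the 3 platelet markers, Pf4 and Ppbp had none there, and Itga2b was at 0.759 to 1.31 CPM in the SDLN libraries. Pecam1, which T cells also make, was at 388 to 548 CPM in SDLN and 16.2 to 62.7 CPM in skin. It was the only endothelial marker tested and was called lower (log2 fold change -3.58, edgeR adjusted p = 0.00856). The part of endothelial cells in the selectin values was not tested. B cell markers summed to 78.6 to 102 CPM in SDLN and 2.99 to 38.4 CPM in skin over 5 markers, and their part in these values was not tested. Sele did not pass without SDLN 1, 2 or 3 (edgeR adjusted p = 0.176, 0.177 and 0.165). In those fits 0.405%, 0.364% and 0.641% of all tested genes were called.

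Hyaluronan enzymes and partners of Cd44 gave 14 tested genes of 21, of which 0 passed with edgeR, 6 higher and 1 lower at an unadjusted p under 0.05 and 6 higher and 1 lower with DESeq2, where 18.6% and 12.6% of all tested genes passed. Their median log2 fold change was 0.70, against 0.05 over all tested genes. Ezr, Rdx and Msn encode the ERM proteins that tie the tail of Cd44 to actin. Msn, the most abundant of the list in CPM, was at 3582, 3305 and 2176 CPM in SDLN 1 to 3 and 3835, 968, 1488 and 1341 CPM in skin 1 to 4. Skin 1 lay above all SDLN libraries and the other 3 skin libraries below them, and Msn did not pass (log2 fold change -0.66, SE 0.47, adjusted p = 0.557). Of the 19 alternatives it passed in 1, without skin 1 (log2 fold change -1.25, adjusted p = 0.0345). Ezr was at 369 to 443 CPM in SDLN and 293 to 453 CPM in skin, and Rdx at 107 to 136 CPM and 102 to 220 CPM; neither passed (adjusted p = 0.896 and 0.569). The hyaluronan synthases Has1, Has2 and Has3 were at most 1.07 CPM in any library. Hmmr, another hyaluronan-binding protein and a mitotic one, was at 3.24 to 4.402 CPM in SDLN and 12.7 to 60.8 CPM in skin, and Tmem2, a cell-surface hyaluronidase, at 7.88 to 8.82 CPM and 15.9 to 104 CPM. Both were picked out after their values were seen; their tissues did not overlap, and neither passed (log2 fold changes 3.36 and 2.90, adjusted p = 0.0551 and 0.0565).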

How the data were processed

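Messenger RNA of sorted Tregs was sequenced in 3 SDLN and 4 skin libraries. Per the labels, cells were flash frozen, RNA was column-purified and cDNA was made with a SMARTer Ultra Low Input kit. The table the authors deposited gives whole, unnormalized counts for each gene symbol. Per the submitters' processing notes, the tools were HTSeq 0.6.1, SAMtools 0.1.19.0, TopHat2 2.0.12 with Bowtie2 2.1.0.0, and CASAVA 1.8.2, on mm10. The gene annotation, the strand setting of the counting and any read filter are not stated. The 5 summary lines, 76.3% to 80.8% of all counts in a column, were left out.

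Genes were kept by filterByExpr (minimum count 10), scaled by TMM and tested in edgeR 4.0.16 (R 4.3.3) by a robust quasi-likelihood fit with tissue as the sole term, two-sided, with Benjamini-Hochberg adjustment over all tested genes at 0.05. SEs are the log2 fold change over the root of its F. CPM use TMM-scaled library sizes. Coordinates and exon lengths are those of GENCODE M21 (mm10), matched by symbol, and upstream sequences are RefSeq's (GRCm38.p6), matched for 7 of the 8 members. The script was tested on counts simulated with the spread of the SDLN libraries (median coefficient of variation 0.187, against 0.750 in skin). That test does not show how the script does at the spread of skin. Alternatives were RLE, upper-quartile and no scaling, no filter and a filter at an average of 5 CPM, limma-voom (limma 3.58.1) with and without weights, DESeq2 1.42.0, no robust fitting, leaving out single libraries, blocking on the replicate number, an adjusted p under 0.01 and glmTreat at a fold of 1.5.

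Members and lists were chosen with earlier results of these data known. Named are all members; up to 3 called genes of each list, or its most abundant; the most abundant marker of each other cell type; 2 look-alikes per member (prior count 2); and others said to be chosen later. A gene that the rule also covers is not reported here. The floors given for a count of 0 cover counting error only.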

Additional observations from a re-analysis of the deposited data

Results flagged for a closer look

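Members and the pathway genes named by rule or for their role were searched, where they had a count in skin. In 2 of these genes, 1 skin library stood apart by a gap to its nearest neighbour above the critical value of Dixon. The gap is taken as a share of the range of the 4 skin libraries. Chance gives such a gap in about 1 in 20 groups of normally distributed values, but here 17.4% of all tested genes showed one, 5.37% with no count in 3 of the 4 skin libraries, where the gap is the whole range by construction. St3gal6 was at 6.70 CPM in skin 4 and had no count in the other 3 skin libraries, so the gap to skin 4 was the whole range of the group. Selp was at 2.64 CPM in skin 3 and likewise had no count in the other skin libraries.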

How the results depend on the processing

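Of 19 alternatives each, Cd44 passed the test in 18 (log2 fold changes 2.33 to 2.48 in all) and Gcnt1 in 18 (3.29 to 3.66). With each library left out in turn, members called higher numbered 2 throughout, at an adjusted p of up to 0.0328 for Cd44 and 0.0446 for Gcnt1, members called lower 0 to 1 (the 1 being St3gal6 without skin 4), all genes called 33 to 582 higher and 9 to 822 lower, and selectin-ligand pathway genes 0 to 2 higher and 0 to 4 lower. The fewest calls came without an SDLN library: 39, 33 and 61 higher and 9, 10 and 15 lower without SDLN 1, 2 and 3.

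Libraries with the same replicate number did not deviate together: correlations of deviations from group means were 0.067, -0.0018 and -0.040. In a fit with a replicate block on 6 libraries, 32 genes were higher and 10 lower, 0 members were higher (Cd44 adjusted p = 0.0572, Gcnt1 0.0598), and 0 pathway genes were called. With the block on 7 libraries, 44 and 12 genes were called, Cd44 and Gcnt1 passed (adjusted p = 0.0479 and 0.0499), and 0 pathway genes did. Skin 4 has no SDLN library of the same number, so it did not inform the tissue term of that fit. Under the block on 6 and 7 libraries, log2 fold changes that turned sign were those of Pofut1 (-0.58 and -0.57), C1galt1 (-4.74 and -4.73) and C1galt1c1 (0.0017 and 0.015).

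All genes called numbered 188 higher and 70 lower with no low-count filter, 100 lower with a mean of at least 5 CPM, 923 higher with DESeq2, 729 lower with limma-voom, 757 higher and 985 lower with sample weights, and 72 higher and 16 lower at an adjusted p under 0.01. Members called lower numbered 1 (St3gal6, adjusted p = 0.0283) with sample weights. Pathway genes called higher and lower numbered 0 and 2 with upper-quartile scaling, 1 and 2 with no scaling, 4 and 3 with DESeq2, 0 and 3 with limma-voom, 3 and 4 with sample weights, 2 and 3 without robust estimation and 0 and 0 at an adjusted p under 0.01; 0 were higher with no filter, with a mean of at least 5 CPM and with glmTreat. Signs also turned for Pofut1 (-0.13) and C1galt1 (-2.52) with limma-voom, C1galt1 (-1.02) with sample weights, and, with libraries left out, for Pofut1 (-0.15 to 0.64), C1galt1 (-0.97 to 1.03), C1galt1c1 (-0.20 to 0.15) and St3gal1 (-0.53 to 0.19); none of these passed a test. Reads per library limit Fut4, with 21 counts over all libraries. The causes of these changes were not tested.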

Other observations

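Markers of other cell types that led their lists in skin were Cd8b1 of CD8 T cells, at 32.9 to 42.3 CPM in SDLN and 0.0920 to 22.8 CPM in skin, Cd79b of B cells, at 52.1 to 76.1 CPM and 0 to 38.4 CPM, and Kit of mast cells, at 4.56 to 10.9 CPM and 0 to 26.2 CPM. Other members of the same lists went another way: Cd8a was at 4.32 to 10.1 CPM in SDLN and at 46.2 CPM in skin 4, with no count in the other skin libraries, so both CD8 markers together came to 69.0 CPM in skin 4 against 43.0 to 46.6 CPM in SDLN. Cpa3 of mast cells was at 0.950 to 2.09 CPM in SDLN with no count in skin and was called lower (edgeR adjusted p = 0.0380). Krt14 of keratinocytes reached 335 CPM and Col1a2 of fibroblasts 266 CPM, both in skin 3. Krt10 of keratinocytes went the other way, at 2.42 to 2.65 CPM in SDLN and at most 0.0881 CPM in skin. It was called lower (edgeR adjusted p = 0.0380), and Krt1 had no count in any library. Pmel, a melanocyte marker, was at 19.5 to 23.7 CPM in SDLN and 0 to 20.5 CPM in skin, Pf4 reached 7.27 CPM in skin and S100a8 7.93 CPM. Cd74, which pairs with Cd44 as a receptor and belongs to MHC class II presentation, was at 300.1 to 490.5 CPM in SDLN. In skin it was at 488 to 7055 CPM, with the highest value in skin 4 (adjusted p = 0.0937, edgeR). The sum of macrophage and dendritic cell markers was also highest in skin 4.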
